A study of Mus musculus with 2 samples.

Results

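The 39 genes described here encode lysosomal enzymes, lysosomal membrane proteins, subunits of the lysosomal proton pump and the transcription factor Tfeb. They were chosen by name from the 32285 genes of the count matrices, and all 39 were found there. The libraries were made from the retinal pigment epithelium (RPE), choroid and sclera of C57BL/6J mice aged 3 months, 7 days after an injection under the retina. Control mice received phosphate-buffered saline, and Dox mice received 1 µl of doxorubicin, a DNA-damaging drug, at 100 ng/µl. Each condition was 1 droplet library pooled from both eyes of 5 mice, so no test between conditions was possible, and an interval given here covers counting error only. The groups shared the strain, the age and the injection itself, and differed by the drug.

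RPE cells engulf the shed tips of photoreceptor outer segments and digest them in lysosomes, which makes the lysosome one of the busiest organelles of this tissue. Lysosomal proteases (the cathepsins), glycosidases and lipid-handling proteins work in an acid interior that the V-type proton pump maintains behind a membrane rich in LAMP proteins. The factor TFEB can raise the transcription of many lysosomal genes together by binding a short palindrome, the CLEAR element, near their start sites. Serpina3n, a secreted serine protease inhibitor, is known as an injury-induced transcript, and here it served to divide the RPE cells.

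Because TFEB is among the 39 genes and several of the others moved together in the RPE cells below, promoters were searched for the core of the CLEAR element, TCACGTGA, and for the E-box inside it, CACGTG. Both read the same on either strand, and every TCACGTGA also counts as a CACGTG. Promoter windows came from RefSeq (build GRCm38.p6, 250 bases before to 50 after each start site), and 33 of the 39 genes matched. Ctsb, Ctsh, Npc1, Asah1, Aga and Atp6v1h did not. TCACGTGA stood in the windows of 6 of the 33 genes (18.2%), namely Ctsd, Ctsa, Cln3, Mcoln1, Gla and Atp6v0d1. By windows, since some genes have several, this was 15.8% of 38, against 0.974% of all 32851 windows of that length. Of 52 other lysosome genes with a window, 6 held it too. CACGTG stood in 11 of the 33 genes, or 28.95% of their windows, against 7.15% of all windows. These matches are descriptions of the letters only. Stretches upstream of the start site of 5 genes are shown, with the motif in capitals. Ctsd, Ctsa and Lamp1 were called higher in Serpina3n-high than in Serpina3n-low RPE cells below, in at least 1 library. Mcoln1 (a calcium channel of the lysosomal membrane) holds both a core and a second E-box, and Gpnmb, which differed most, holds neither in its window. Among the genes with TCACGTGA, Cln3, Mcoln1 and Atp6v0d1 were not called between those cells, and Gla was called lower in control on 3 UMIs. Lamp2 and Ctsk were called higher in both libraries and hold neither motif in their windows. Nor do Hexa, Gusb and Tfeb, called higher in control only, or Man2b1, Neu1, Scarb2 and Cd68, called higher in Dox only. Of the other genes with CACGTG alone, Glb1 was called higher in both libraries and Ctsl in control, while Gaa and Ctsf were not called.
Ctsd, chr7:142387838-142387957, minus strand: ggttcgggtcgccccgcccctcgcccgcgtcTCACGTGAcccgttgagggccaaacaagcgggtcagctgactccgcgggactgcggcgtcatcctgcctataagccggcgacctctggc
Ctsa, chr2:164833673-164833772, plus strand: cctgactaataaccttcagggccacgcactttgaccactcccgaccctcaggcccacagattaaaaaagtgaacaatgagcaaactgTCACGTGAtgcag
Mcoln1, chr8:3500409-3500508, plus strand: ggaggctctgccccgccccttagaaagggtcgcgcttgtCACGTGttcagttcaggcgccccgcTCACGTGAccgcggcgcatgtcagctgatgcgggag
Lamp1, chr8:13159061-13159160, plus strand: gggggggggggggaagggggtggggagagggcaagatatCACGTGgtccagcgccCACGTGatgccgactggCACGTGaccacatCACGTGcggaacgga
Gpnmb, chr6:49036418-49036517, plus strand: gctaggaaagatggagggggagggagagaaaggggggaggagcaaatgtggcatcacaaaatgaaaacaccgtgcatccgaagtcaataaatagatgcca
In Ctsd the core began 99 bases before the start site, and in Ctsa a first copy began 13 bases before it. The Lamp1 stretch held 4 E-boxes within the 61 bases before its start site.

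After limits on genes, UMIs and mitochondrial share, 20180 control cells and 15426 Dox cells were kept, with medians of 4495 and 4995 UMIs (unique molecules counted). In all, 427 cell barcodes were present in both sets of kept cells. RPE cells were those with at least 10 UMIs of Rpe65, the visual-cycle isomerase of this tissue. There were 1526 in the control library (7.56% of kept cells) and 1630 in the Dox library (10.6%), and 9 of the 10 RPE markers stood at 10 counts per 1000000 UMIs (CPM) or more in them in both libraries. Most of these cells lay in 1 cluster led by Mt3 and Rd3l (1309 control and 1325 Dox cells). Another 146 and 211 lay in 2 clusters that no marker list named, led by Cxcl10 and by Gm26917. RPE cells were called Serpina3n-high at 1000 CPM of Serpina3n or more in the cell, which gave 15 control cells and 208 Dox cells. Serpina3n-low cells numbered 1511 and 1422. The high cells were deeper than the low cells, with medians of 33954 against 15957 UMIs in control and 28244 against 16608 in Dox.

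Across the choroidal cell types, the 39 genes together took the largest share of summed UMIs in macrophage-like cells (macrophage or antigen-presenting cell markers) and in melanocyte-like cells. The smallest was in NK- or T-like cells. Their summed share was 1.92% of UMIs in macrophage-like cells of the control library and 1.88% in those of the Dox library. In melanocyte-like cells it was 1.54% and 1.62%, in fibroblast-like cells 0.879% and 0.872%, and in NK- or T-like cells 0.521% and 0.461%. Serpina3n-low RPE cells lay between these, at 1.18% in both libraries. By the median of single cells, macrophage-like cells held less than melanocyte-like cells, at 1.34% (control) and 1.13% (Dox) against 1.40% in both libraries. The 90th percentile of macrophage-like cells was 3.53% and 2.55%, so their summed share leaned on some cells with high shares. Serpina3n-high RPE cells held the highest summed shares of any group listed, 2.43% (95% exact interval 2.38 to 2.47%) in control and 1.96% (1.95 to 1.98%) in Dox. This rank depended on Ctsd. Without that gene these high cells held 1.56% and 1.34%, below the 1.73% and 1.68% of macrophage-like cells. The cluster called melanocyte-like was led by Hbb-bs as well as Pmel and was shallow, with medians of 1160 and 760 UMIs, and at a finer clustering red blood cells left it. The Schwann-like cluster was not stable to that change, since most of its cells left it, so its values say little about Schwann cells.

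**Figure D1:**
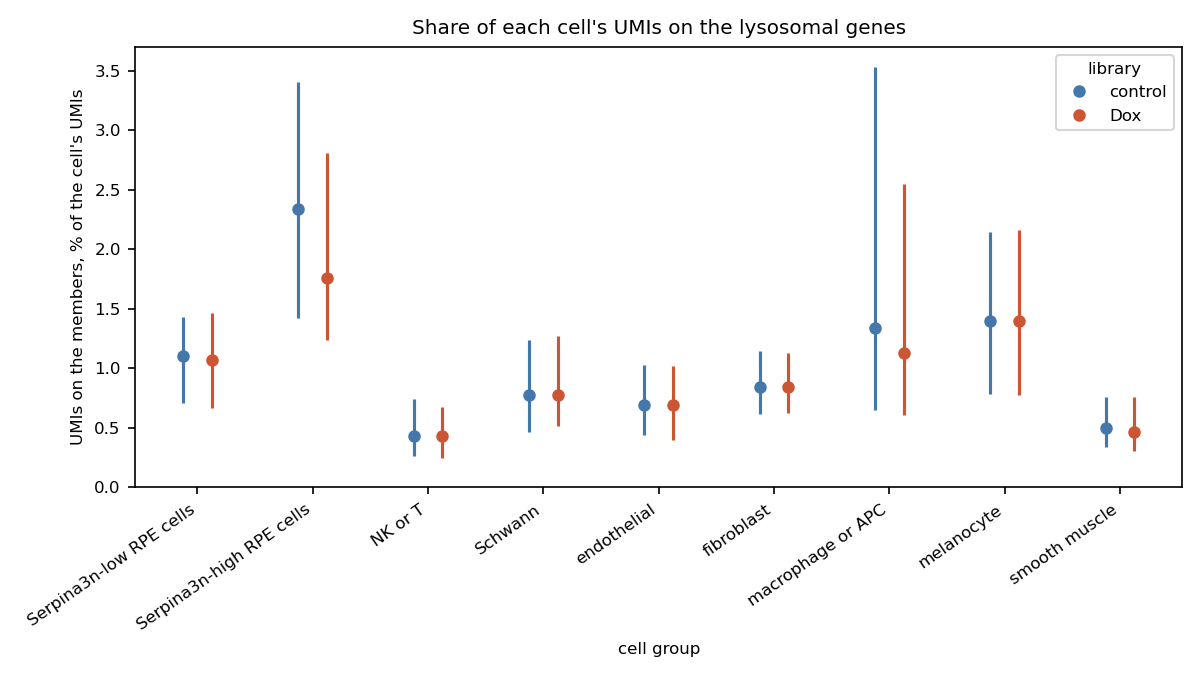
Share of each cell's UMIs that fell on the 39 lysosomal genes (y axis, %), by cell group (x axis) and library (blue control, red Dox). Points are medians over cells and bars run from the 10th to the 90th percentile of cells. Serpina3n-high RPE cells have medians of 2.34% (control) and 1.76% (Dox), against 1.10% and 1.07% in Serpina3n-low RPE cells.

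Each gene was next ordered over 8 cell types by its CPM within a library. Of the 39 genes, 35 had the same top type in both libraries. Macrophage-like cells were the top type of 16 genes in both libraries, and RPE cells of 7, melanocyte-like cells of 4, Schwann-like cells of 3, endothelial-like cells and fibroblast-like cells of 2 each, and smooth muscle-like cells of 1. The 7 genes highest in RPE cells were Ctsd (cathepsin D, an aspartic protease essential for the digestion of outer segments), Tpp1 (tripeptidyl peptidase), Glb1 (beta-galactosidase), Neu1 (sialidase), Aga (aspartylglucosaminidase) and the pump subunits Atp6v0d1 and Atp6v1h. Ctsd stood at 2355 CPM in control RPE cells and 3153 in Dox RPE cells, against 1927 and 2007 in macrophage-like cells, 1173 and 2728 in melanocyte-like cells and 580 and 716 in fibroblast-like cells. Atp6v0d1 stood at 181 and 177 CPM in RPE cells against 167 and 168 in macrophage-like cells. The span of Glb1 overlaps that of the coding gene Tmppe on the same strand, and the span of Ctsd that of Gm49369. How far these overlaps affected the UMIs counted for Glb1 and Ctsd was not tested.

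Several proteases marked other cells instead. Ctss (cathepsin S, which trims the invariant chain in antigen presentation) stood at 1758 CPM in control and 1761 in Dox macrophage-like cells, against 15.1 and 4.01 in RPE cells. Outside that group its highest level was 79.0 CPM in control, in NK- or T-like cells, and 62.1 CPM in Dox, in melanocyte-like cells. Cd68, a macrophage lysosomal glycoprotein, was at 585 and 552 CPM in macrophage-like cells and at 11.8 and 8.97 CPM in RPE cells. Ctsh, an aminopeptidase, was at 20.6 and 12.2 CPM in RPE cells, at 482 and 454 in macrophage-like cells, at 224 and 218 in fibroblast-like cells and at 160 and 178 in endothelial-like cells. Ctsk, the collagen-degrading cathepsin of osteoclasts, was highest in fibroblast-like cells, at 149 and 140 CPM, against 25.3 and 20.8 in RPE cells. Ctsc (dipeptidyl peptidase I) was lower in stroma than in RPE cells, at 24.1 and 24.3 CPM in fibroblast-like cells, 27.5 and 25.9 in smooth muscle and 20.1 and 26.9 in endothelium, against 127 and 123 in RPE cells. Gla (alpha-galactosidase A) was highest in smooth muscle, at 99.2 and 90.2 CPM against 14.4 and 12.6 in RPE cells.

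The lipid and membrane genes showed a further split. Psap, the precursor of the saposins that help glycolipid breakdown, was at 2863 and 2845 CPM in RPE cells, at 3219 and 3474 in macrophage-like cells and at 600 and 573 in NK- or T-like cells. Cd63, a tetraspanin of lysosomes and melanosomes, was at 1618 and 1611 CPM in RPE cells and at 2638 and 2348 in melanocyte-like cells. Gpnmb, a transmembrane glycoprotein of melanosomes and of lysosomes under stress, was at 2967 and 2437 CPM in melanocyte-like cells, against 371 and 536 in RPE cells. Lamp1 was lowest in RPE cells among the 8 types, at 240 and 226 CPM, with 571 and 580 in fibroblast-like cells. Tfeb too was lowest in RPE cells, at 11.2 and 10.99 CPM, and highest in endothelial-like cells, at 35.4 and 41.0. The acid alpha-glucosidase Gaa differed less, at 114 and 113 CPM in RPE cells, 134 and 138 in fibroblast-like cells and 55.0 and 47.3 in macrophage-like cells.

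**Figure D2:**
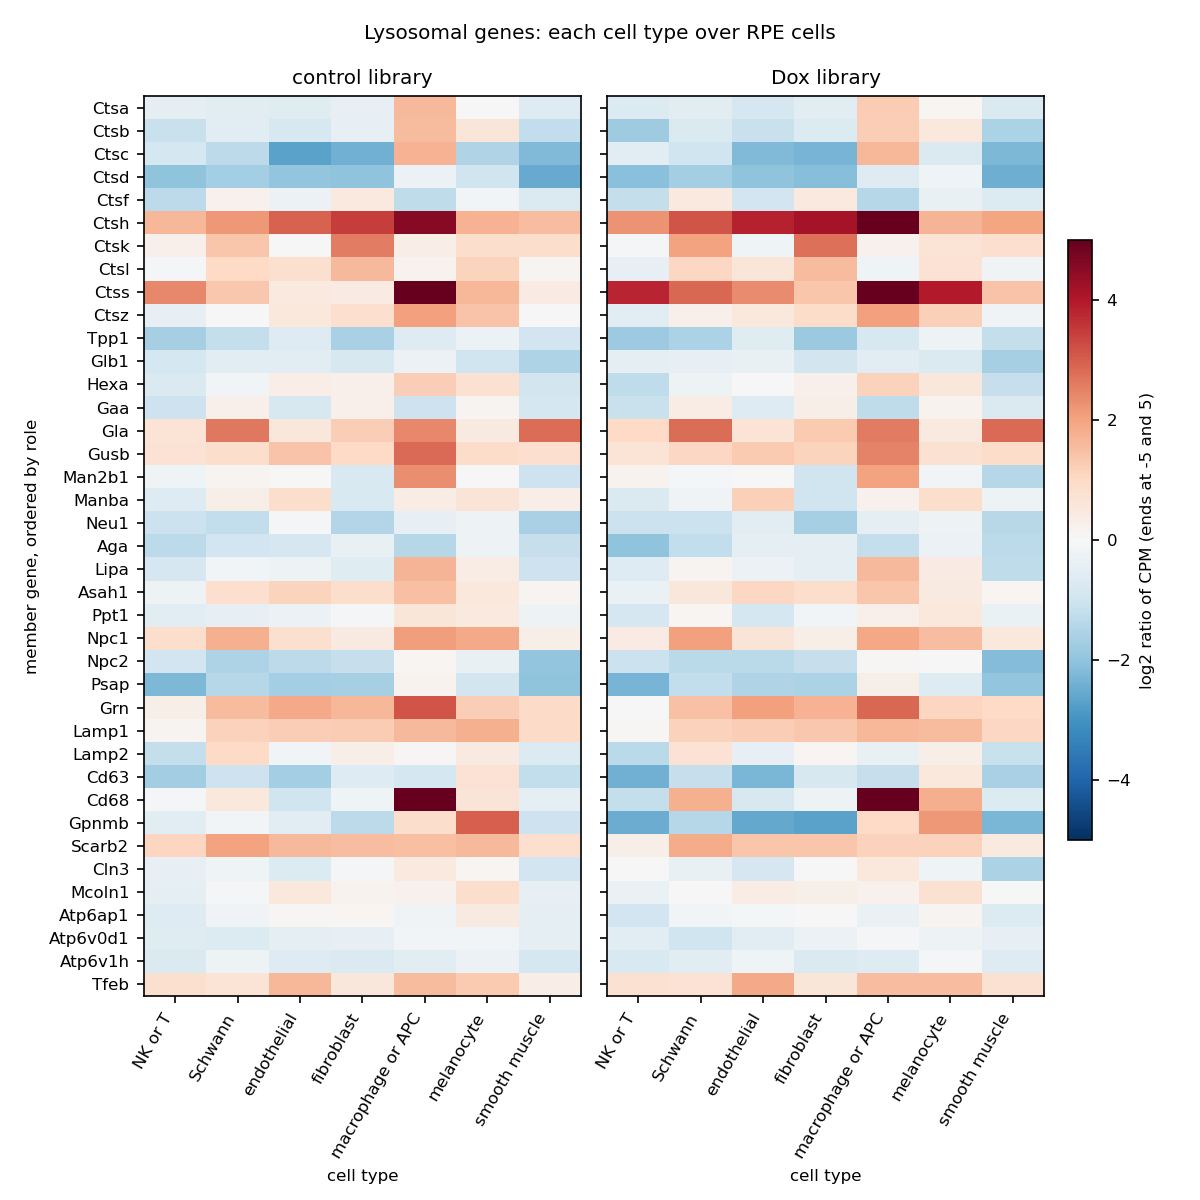
log2 ratio of the CPM of each cell type over RPE cells (color) for the 39 lysosomal genes (rows, ordered by role) in each of 7 other cell types (columns), control library left and Dox library right. Red is higher and blue lower than in RPE cells, with the color ending at -5 and 5. Ctss, Cd68 and Ctsh are the darkest red in the macrophage-like column, while the Ctsd row is blue in every column of both panels.

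Genes of other cell types were counted in every group, at levels that differed between the libraries. Pmel, a melanocyte gene that RPE cells can also express, stood at 297 CPM in control Serpina3n-low RPE cells and 67.8 in Dox ones. The study lists Pmel as a marker of a control RPE cluster and as lower in Dox RPE cells. The melanocyte markers used below include it, so in RPE cells their sums can hold RNA of the RPE cells themselves. In control and Dox Serpina3n-low RPE cells the macrophage gene C1qa stood at 17.9 and 2.26 CPM and the fibroblast gene Dcn at 792 and 491 CPM. How far such RNA entered the values of the lysosomal genes was not tested, but ratios to these genes were read. Gpnmb UMIs per Pmel UMI were alike in control NK- or T-like cells (0.369), endothelial-like cells (0.361), fibroblast-like cells (0.356) and smooth muscle-like cells (0.351), near the 0.294 of melanocyte-like cells. In control Serpina3n-low RPE cells the ratio was 1.14, in macrophage-like cells 1.25, and in Serpina3n-high RPE cells 6.52. In the Dox library the same ratio was 0.357 in melanocyte-like cells and higher in NK- or T-like (0.604), endothelial-like (0.645), smooth muscle-like (0.797) and fibroblast-like cells (0.845). There, Serpina3n-low RPE cells had 3.55, macrophage-like cells 8.20 and Serpina3n-high RPE cells 42.2 Gpnmb UMIs per Pmel UMI. Ctss UMIs per UMI of the 3 C1q genes were 0.270 in control Serpina3n-low RPE cells, against 0.375 in macrophage-like cells and 0.462 in fibroblast-like cells. In Dox the order was not the same, at 0.574, 0.553 and 0.503.

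The comparison of Serpina3n-high with Serpina3n-low cells asks which lysosomal genes went with Serpina3n within 1 library. By role, 5 of 11 proteases, 3 of 8 membrane proteins, 3 of 9 glycosidases, 1 of 7 lipid and saposin genes, none of the 3 pump genes and Tfeb were called higher in Serpina3n-high cells of the control library, and 1 protease and 2 glycosidases lower. In Dox, 4 proteases, 4 membrane proteins and 4 glycosidases were called higher and 2 proteases lower, with no call among the other roles. Gpnmb, Ctsd and Ctsb had the highest ratios in both libraries. A gene with at least 20 UMIs over both groups was called at 1.5-fold or more, and counted again where its 95% interval also left out 1. In control, 13 of 39 genes were called higher, against 12.7% of all 13123 genes tested, and 10 of them with the interval as well, against 3.22%. In control, 3 were called lower, against 20.6% of all genes, none of them with the interval, against 4.92%. In Dox, 12 of 39 were called higher (all genes 5.51%), all 12 with the interval (4.33%), and 2 lower (23.3%), both with the interval (16.2%). A gene with few UMIs can pass the fold limit by counting error and seldom passes the interval. The 39 genes were not matched to all genes in UMIs, so the shares are not like for like. The median log2 ratio of the 39 genes was 0.52 in control and 0.38 in Dox. Over all genes tested it was 0.00 in control and -0.20 in Dox, so in Dox every ratio can also be read 0.20 higher. With that centring 19 of the 39 genes were called higher in Dox. Ctsd, Ctsb and Gpnmb were on lists that the study drew from these same samples, so these counts are not independent evidence of its direction.

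Among the proteases, Ctsd stood at 2244 CPM in Serpina3n-low and 8695 in Serpina3n-high control cells, and at 2479 and 6256 in Dox cells. The log2 ratio of high over low was 1.95 (lower 95% bound 1.91) in control and 1.34 (95% interval 1.32 to 1.35) in Dox. Ctsb, a cysteine protease, went from 865 to 2792 CPM in control and from 824 to 2016 in Dox, with log2 ratios of 1.69 (1.61 to 1.77) and 1.29 (1.26 to 1.32). Both genes were thus higher in the high cells of each library, and more so in control. Ctsa, the protective protein of beta-galactosidase and sialidase, went from 166 to 340 CPM and from 163 to 328, with log2 ratios of 1.04 and 1.01. Ctsl, a cysteine protease, had ratios of 1.01 and 0.58, and Ctsk of 0.74 (0.00 to 1.40) and 0.87 (0.61 to 1.12). Ctsc was not called in either library, at -0.32 and -0.26. In control, Ctss was called lower at -1.79, on 2 UMIs in the high cells and with an interval that included 0. Ctsh was close there, at 20.6 CPM in low and 19.9 in high cells. Ctss and Ctsh were called lower in Dox, at -0.90 (-1.86 to -0.07) and -1.40 (upper 95% bound -0.85). In RPE cells with under 0.5% of their UMIs on markers of fibroblasts, melanocytes, macrophages and NK or T cells, these ratios were -0.46 and -0.33, with intervals that included 0. In the Dox low and high cells the 14 macrophage markers summed to 201 and 95.8 CPM. The 13 fibroblast markers summed to 1068 and 373 CPM there. The part of either in the Ctss and Ctsh values was not tested.

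Of the membrane proteins, Gpnmb had the highest ratio of the 39 genes in both libraries at this Serpina3n limit. It went from 338 to 2262 CPM in control (log2 ratio 2.74, 2.65 to 2.83) and from 241 to 1895 in Dox (2.97, 2.93 to 3.02). Without the deepest Serpina3n-high cell of each library the ratios were 2.43 and 2.98. With the Serpina3n limit at 2000 CPM, which left 8 control high cells, Gpnmb was at 1.81 in control, below Ctsd at 2.15 and near Ctsb at 1.83, and at 2.92 in Dox. The control value and its rank thus depended on few cells. Pmel was at 297 and 347 CPM in the low and high control cells and at 67.8 and 44.9 in the Dox cells. The 8 melanocyte markers summed to 2791 and 3898 CPM in control and to 1798 and 1866 in Dox, and their part in the Gpnmb values was not tested. Lamp2, the receptor of chaperone-mediated autophagy, went from 191 to 391 CPM and from 209 to 316, with log2 ratios of 1.03 and 0.60. Lamp1 went from 236 to 464 and from 211 to 296, with ratios of 0.97 (0.77 to 1.17) and 0.49 (0.41 to 0.57), and the control ratio was -0.05 with every cell thinned to 2000 UMIs. Thinning left far fewer UMIs in the control high cells, so that value carries a larger counting error. Scarb2 (LIMP-2, an abundant glycoprotein of the lysosomal membrane) differed between the libraries, with 38.0 and 39.8 CPM in control and 36.7 and 80.7 in Dox, on 18 UMIs in the control high cells. Cd68 had 7.26 and 16.9 CPM in Dox (log2 ratio 1.22, 0.85 to 1.58). The 14 macrophage markers summed to 201 and 95.8 CPM in the Dox low and high cells, and their part in the Cd68 values was not tested. Cd63 was close in low and high cells, with log2 ratios of 0.09 (-0.02 to 0.19) and 0.22 (0.19 to 0.25).

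Glycosidases had a median log2 ratio of 0.53 in control and 0.49 in Dox, against 0.57 and 0.37 for the proteases. Man2b1 (lysosomal alpha-mannosidase), Aga, Glb1 and Neu1 were called higher in Dox, with log2 ratios of 0.83, 0.82, 0.82 and 0.63. In control the ratios of the same genes were 0.57, 0.52, 0.60 and 0.39. Of these, Glb1 was called higher in control too, on 23 UMIs in the high cells. Gusb (beta-glucuronidase) and Hexa (the alpha subunit of hexosaminidase) were also called higher in control, at 0.93 and 0.82, with 0.49 and 0.38 in Dox. Gla and Manba (beta-mannosidase) were called lower in control, on 3 and 2 UMIs in the high cells and with intervals that included 0. Gaa was below the fold limit in both, at 0.53 (0.18 to 0.87) and 0.41 (0.30 to 0.53). Among the 7 lipid and saposin genes, only Npc1 in control was called, on 7 UMIs in the high cells and with an interval that included 0. Psap, the most counted of them, was at 2861 and 2988 CPM in control and at 2873 and 2718 in Dox, a log2 ratio of 0.06 (-0.02 to 0.14) and -0.08 (-0.10 to -0.05). The 3 pump genes had ratios between -0.11 and 0.20 in control and between -0.05 and 0.43 in Dox, the highest being Atp6ap1 (an accessory subunit) at 0.43 (0.35 to 0.51). Tfeb rested on 9 UMIs in the control high cells, with 11.1 and 19.9 CPM there and 10.1 and 14.9 in Dox (log2 ratio 0.56, 0.18 to 0.92).

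**Figure D3:**
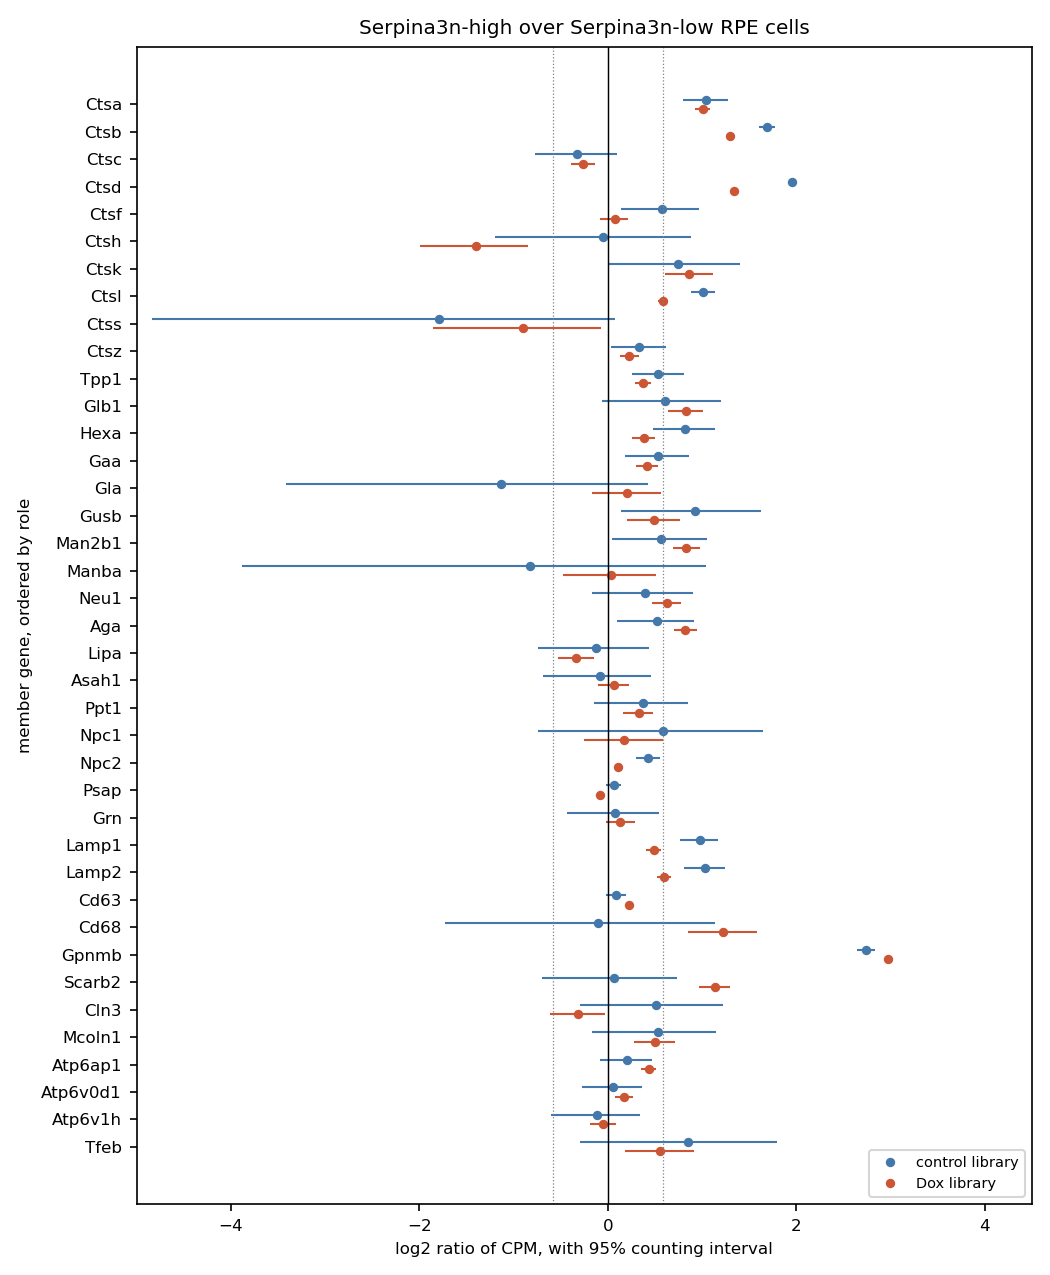
log2 ratio of the CPM in Serpina3n-high over Serpina3n-low RPE cells (x axis) for each of the 39 lysosomal genes (y axis, by role), control library in blue and Dox library in red. Bars are 95% counting intervals, with the lines at 0 (solid) and 1.5-fold either way (dotted). Gpnmb lies farthest right in both libraries (2.74 and 2.97), and the pump genes lie between -0.11 and 0.43.

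For the leading genes most single high cells lay above the median low cell. Of the 15 control high cells, 14 had more Ctsd CPM than the median low cell, and of the 208 Dox high cells 195 did (93.8%). For Ctsb these were 14 and 201 cells, and for Gpnmb 14 and 205. For Psap they were 8 and 112 cells, close to an even split. Low cells also reached high values. Over single Dox low cells Ctsd ran from 0 to 25505 CPM with a median of 1977, and over Dox high cells from 1060 to 26643 with a median of 4251, so the groups overlapped. Rpe65, whose UMIs chose the cells, so that deeper cells entered at a lower CPM, was at 5008 and 2544 CPM in control low and high cells and at 5499 and 1954 in Dox ones, and Mt3 (a metallothionein) at 4214 and 2222 and at 4168 and 1452. The 10 RPE markers together differed less. They summed to 101946 and 80682 CPM in control low and high cells and to 105548 and 86011.5 in Dox ones.

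The levels were then read over 4 ranges of Serpina3n. Ctsd climbed through the ranges in each library, from 2095 CPM below 100 CPM of Serpina3n to 3980, 7224 and 11243 CPM in control, on 1399, 112, 9 and 6 cells. In Dox it climbed from 2308 to 3461, 5459 and 6525 CPM, on 1107, 315, 64 and 144 cells. The Dox cells from 100 to under 1000 CPM were shallower, with a median of 8352 UMIs against 19327 below 100 CPM, and at that depth 1 UMI of Serpina3n passes 100 CPM. Ctsb followed the same order, from 817 to 3120 CPM in control and from 783 to 2108 in Dox. Gpnmb climbed through all 4 ranges in Dox (176, 618, 1329 and 2086 CPM) and through the first 3 in control (280, 1018 and 2992), but stood at 996 CPM in the 6 control cells at 3000 CPM or more. Lamp1 reached 291 CPM in the Dox range from 100 to under 1000 and was level from there, at 301 and 295. Psap stayed between 2610 and 2918 CPM over the 4 Dox ranges. The cell-cycle inhibitor Cdkn1a, a senescence gene, stood at 43.5, 216, 319 and 317 CPM over the Dox ranges and at 44.9, 79.8, 34.8 and 72.4 over the control ranges.

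**Figure D4:**
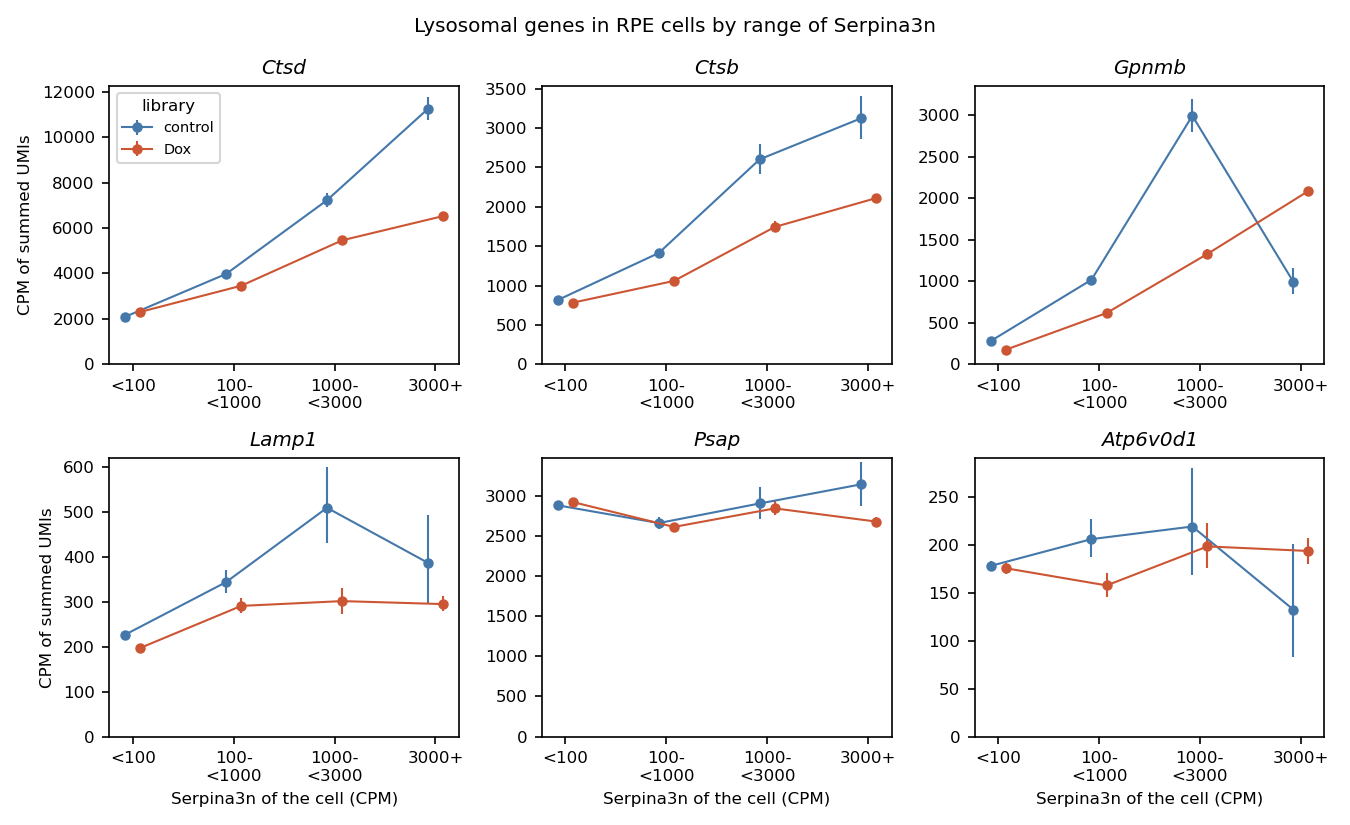
CPM of summed UMIs (y axis, from 0) of 6 lysosomal genes in RPE cells by the Serpina3n level of the cell (x axis, 4 ranges in CPM), control in blue and Dox in red. Bars are 95% Poisson intervals. Ctsd climbs from 2095 to 11243 CPM in control and from 2308 to 6525 in Dox, while Psap stays between 2610 and 3138 CPM.

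Dox was compared with control within Serpina3n-low and within Serpina3n-high RPE cells, because the libraries held unequal numbers of Serpina3n-high cells. Cells within a group were not otherwise matched between the libraries. The study reports Serpina3n itself as raised in Dox RPE cells, so the split was not independent of the drug. The low cells included 112 control and 315 Dox cells at 100 to under 1000 CPM of Serpina3n. Of the high cells, 6 of 15 in control and 144 of 208 in Dox were at 3000 CPM or more. In the high cells the 8 melanocyte markers summed to 3898 CPM in control and 1866 in Dox. In Serpina3n-low cells the summed share was the same to 3 digits, and of 39 genes none was called higher (all genes 2.41%) and 3 were called lower (6.18%). The median log2 ratio of Dox over control was -0.05, and 0.01 over all genes tested. The 3 lower genes were Ctss at 15.3 CPM in control and 4.37 in Dox (-1.81, -2.12 to -1.50), Cd68 at 11.8 and 7.26 (-0.71, -0.98 to -0.44) and Ctsh at 20.7 and 13.7 (-0.59, -0.79 to -0.39). All 3 were far higher in macrophage-like cells, and Ctsh was also far higher in fibroblast-like cells. Of the 14 macrophage markers, 10 stood at 10 CPM or more in control low cells and 5 in Dox ones, and their summed level was 407 CPM in control and 201 in Dox. The 13 fibroblast markers summed to 1582 CPM in control low cells and 1068 in Dox ones. The part of either set in these 3 ratios was not tested. Within RPE cells that held few markers of other types, Ctss was at -0.86, Ctsh at -0.51 and Cd68 at -0.13, the last with an interval from -0.48 to 0.22. Gpnmb was at -0.49 (-0.54 to -0.44) in low cells and at -0.20 with the same restriction. Ctsd was 0.14 (0.13 to 0.16) and Tpp1 0.20 (0.15 to 0.26) higher, both under the fold limit.

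In Serpina3n-high cells, 4 of 38 genes tested were called higher in Dox (all genes 19.0%) and 4 lower (14.4%), on 15 control cells. With the interval as well, 1 was higher (all genes 3.62%) and 2 lower (4.75%). Scarb2 was higher (1.02, 0.34 to 1.79) and Lamp1 (-0.65, -0.85 to -0.43) and Ctsh (-1.93, -3.05 to -0.67) were lower. Ctsh rested on 9 UMIs in control and turned sign under 3 alternatives. Ctsd was lower in Dox high cells than in control ones, at 6256 against 8695 CPM (-0.47, -0.52 to -0.43), and Ctsb likewise at -0.47 (-0.55 to -0.38). Both were under the fold limit, and the control values came from 15 cells of a single pool. The Dox over control ratio of the high cells was set against that of the low cells for each gene. Over the 39 genes, the interval of this difference lay below 0 for 11 and above 0 for 3, against 8.89% and 3.07% of the 11442 genes with a UMI in all 4 groups. A gene with few UMIs seldom passes this interval, and the 39 were not matched to the others in UMIs. These shares are thus not like for like. The 3 were Scarb2 (1.07, 0.38 to 1.76), Gpnmb (0.23, 0.13 to 0.34) and Cd63 (0.14, 0.03 to 0.24). The 11 included Ctsd (-0.62, -0.67 to -0.57), Lamp1 (-0.49, -0.70 to -0.27) and Ctsb (-0.40, -0.49 to -0.31). For Gpnmb the sign of the Dox over control ratio in the high cells was not stable. It was -0.25 (-0.35 to -0.16) as given, 0.06 (-0.05 to 0.17) without the deepest cell, 0.66 (0.48 to 0.84) with the Serpina3n limit at 2000 CPM and -0.44 (-0.54 to -0.34) without the highest doublet scores.

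Over all RPE cells, high and low together, no gene of the 39 was called higher in Dox (all genes 2.93%) and 2 were called lower (7.44%), Ctss at -1.91 and Ctsh at -0.76. The median log2 ratio was -0.01. Ctsd was 0.42 (0.41 to 0.44), Gpnmb 0.53 (0.49 to 0.57) and Ctsb 0.21 (0.18 to 0.23) higher in Dox. High cells were 208 of 1630 RPE cells in Dox and 15 of 1526 in control, and for these 3 genes the ratio in low cells was 0.14, -0.49 and -0.07.

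**Figure D5:**
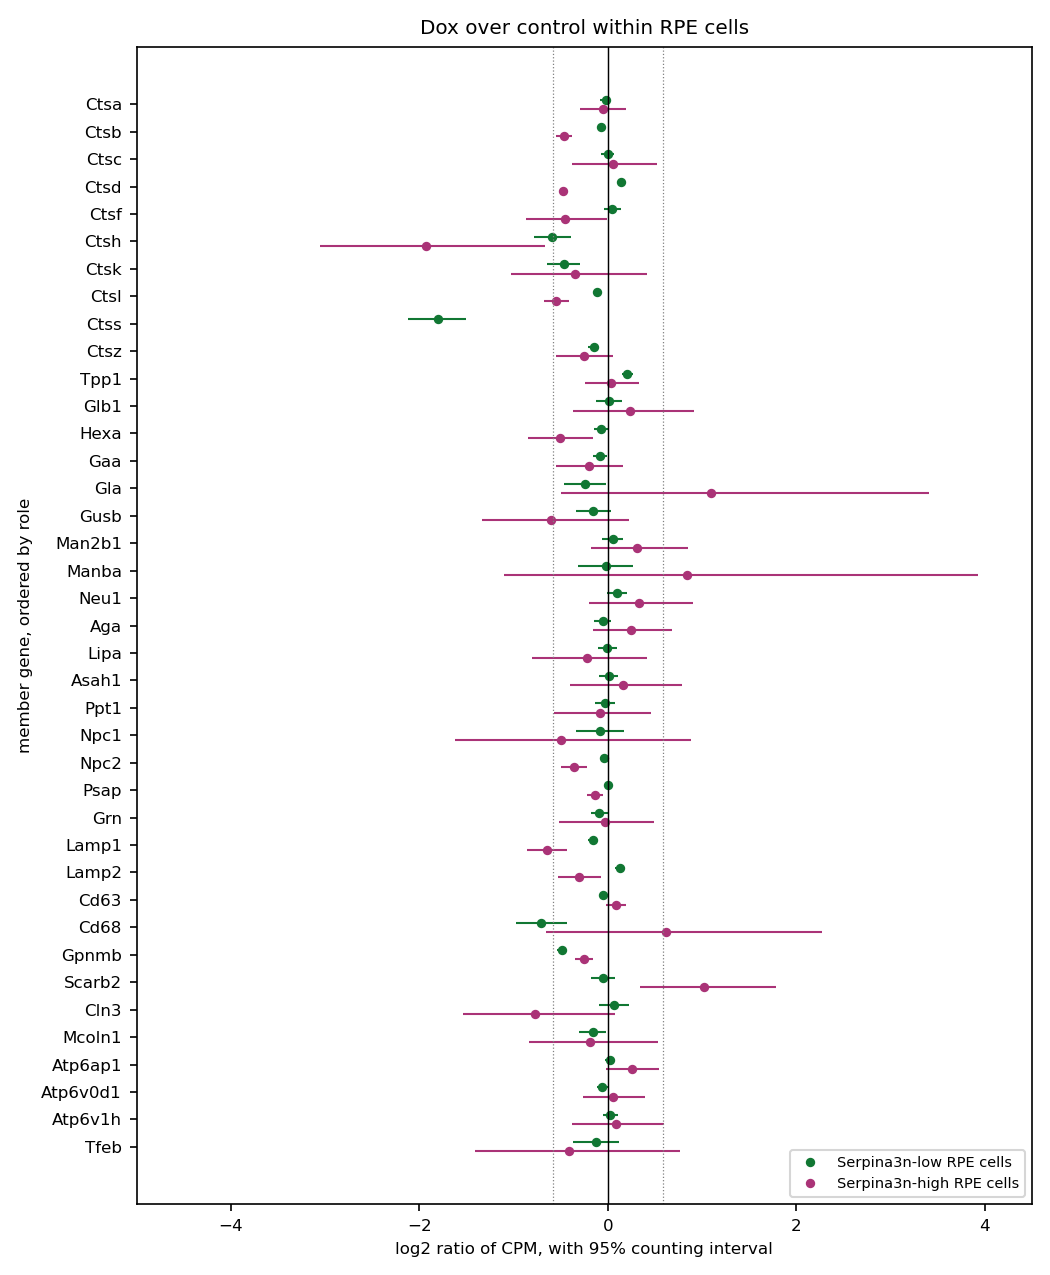
log2 ratio of the CPM in Dox over control (x axis) for each of the 39 lysosomal genes (y axis, by role) in Serpina3n-low (green) and Serpina3n-high (purple) RPE cells. Bars are 95% counting intervals, with the lines at 0 (solid) and 1.5-fold either way (dotted), and Ctss has no point for the high cells, with under 20 UMIs over both libraries. In the low cells only Ctss, Cd68 and Ctsh pass the dotted line, all to the left.

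The same comparison in other cells gave few calls. In fibroblast-like cells none of the 39 genes was called higher (all genes 2.58%) and 2 were called lower (5.20%), Gpnmb at 149 CPM in control and 83.0 in Dox, and Ctss at 20.2 and 10.5. In macrophage-like cells Gpnmb alone was called higher, at 679 and 1072 CPM (0.66, 0.59 to 0.73), with 5.07% of all genes called higher and 7.94% lower, and no gene of the 39 lower. In melanocyte-like cells Ctsd, Cd68 and Ctsc were called higher (all genes 9.48%) and Ctsh lower (10.4%). Ctsd went from 1173 CPM in control to 2728 in Dox there, and from 1027 to 1664 where red blood cells had been split off by finer clustering. The 10 RPE markers summed to 9279 CPM in control and 28985 in Dox melanocyte-like cells, and their part in the Ctsd values was not tested.

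A second list of 66 other lysosome genes was read in the same way, of which 64 could be tested between high and low RPE cells. It held further hydrolases, pump subunits and trafficking proteins. In control, 8 were called higher and 6 lower, against 12.7% and 20.6% of all genes. With the interval as well, 7 were higher and 2 lower (all genes 3.22% and 4.92%), and the median log2 ratio was 0.11. In Dox, 2 were called higher and 2 lower (all genes 5.51% and 23.3%), each with the interval as well (4.33% and 16.2%), and the median was 0.12. Naglu, which breaks down heparan sulfate, was called higher in both libraries with the interval, at 0.88 (0.27 to 1.43) and 0.78 (0.60 to 0.97). Between Dox and control low cells none of the 64 was called in either direction, with a median log2 ratio of 0.01.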

How the data were processed

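Single-cell libraries of control and Dox mice, 1 each, were made with a 5′ droplet kit, and the authors ran Cell Ranger (the file headers give cellranger 4.0.0, build mm10) and deposited raw UMI counts per gene and cell. The deposited matrices held 20381 control and 15649 Dox cells with 117731270 and 103997248 UMIs. Cells with at least 500 UMIs, 200 to 6000 genes, complexity of at least 0.8 and a mitochondrial fraction under 0.2 were kept. Clusters came from Seurat 5.3.0 (sctransform 0.4.2, R 4.3.3, 3000 features without the 39 genes, 40 components). A cluster was named from a marker list only with at least 3 of its markers at 10 CPM and 1 among its 10 leading genes. Scrublet's own threshold called 1941 control cells and no Dox cell, so it did not work there, and cells were kept, with an alternative without top scores. CPM are summed UMIs per 1000000 UMIs, with exact Poisson intervals. Ratios carry exact conditional binomial intervals, and shares Clopper-Pearson ones. All cover counting error only, at 95%. A count of 0 was set to 3 UMIs. A gene was called at 1.5-fold with at least 20 UMIs over both groups. Scripts used Python 3.11.15, numpy 2.4.6 and scipy 1.17.1, and were tested on simulated data. With 1 library per condition there was no test between conditions. Full values were given for the member with most UMIs in each role. They were also given for members called between the libraries, or between Serpina3n-high and Serpina3n-low cells in both libraries, with an interval that left out 1 (up to 8 in each direction). Up to 3 members highest and 3 lowest against RPE cells in each other cell type were added, at 4-fold or more in both libraries in either direction. Others were named after their values were seen. The genes and lists were chosen with earlier results of these data known. The values of 1 gene of the second list are not reported here.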

Additional observations from a re-analysis of the deposited data

Results flagged for a closer look

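Gpnmb and Cd68 moved in opposite directions between the libraries in different cell types. The opposition was read from counting intervals in single libraries, and the difference between cell types was not tested. The log2 ratio of Dox over control for Gpnmb was 0.66 in macrophage-like cells, but -1.38 in NK- or T-like, -1.48 in endothelial-like, -0.85 in fibroblast-like, -0.71 in smooth muscle-like and -0.74 in Schwann-like cells. The Schwann-like cluster was not stable to a finer clustering. Pmel was lower in Dox in all of these cell types. It stood at 420 CPM in control and 98.2 in Dox fibroblast-like cells, at 673 and 158 in NK- or T-like and at 699 and 141 in endothelial-like cells. In smooth muscle-like cells it stood at 517 and 139, in Schwann-like cells at 905 and 234 and in macrophage-like cells at 542 and 131. Its bearing on the Gpnmb ratios was not tested. For Cd68 the ratio was -0.71 in Serpina3n-low RPE cells and -1.48 in NK- or T-like cells, but 0.81 in melanocyte-like cells. The NK- or T-like ratio rested on 22 control and 5 Dox UMIs of Cd68, and the melanocyte-like ratio on 106 and 87. Red blood cells left the melanocyte-like cluster at a finer clustering.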

How the results depend on the processing

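No paired analysis was possible because each condition had 1 library. The alternatives with few markers of other types, without the deepest Serpina3n-high cell and with at least 20000 UMIs were chosen after seeing the data. The median log2 ratio of the 39 genes in Serpina3n-high over low cells stayed between 0.18 and 0.52 in control and between 0.28 and 0.58 in Dox. Of the values for single genes, 1348 stayed near the main value (inside its counting interval), 272 moved and 5 reversed. The limits on UMIs for a call cannot change a ratio, and the Serpina3n limits cannot change one over all RPE cells. Such values are among the 1348. A change of sign counted as reversed only where the main value was 1.5-fold or more with its interval off 1. Other changes of sign, such as that of Gpnmb between Dox and control high cells, are not among the 5. Of the cell counts, gene counts, medians and summed shares, 371 stayed near the main value and 94 moved. For counts, near meant within 1.5-fold, and for medians and shares inside the main interval. The Dox over control ratio of Ctsh in Serpina3n-high cells became 0.020 with the Serpina3n limit at 2000 CPM, 0.59 without top doublet scores and 0.091 in cells with few markers of other types, and that of Lamp1 became 0.28 with thinned cells, as the control high over low ratio of Lamp1 became -0.047. Thinned cells held fewer UMIs, so these Lamp1 values carry a larger counting error. The cause of the changes was not tested.

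Of the 39 genes, the number higher in Dox over all RPE cells was 1 with Rpe65 at 20 UMIs, without top doublet scores, with at least 20000 UMIs and with few markers, and the number lower was 1 with Rpe65 at 5 UMIs, with mean CPM of cells, at 2-fold and with few markers. In Serpina3n-low cells 1 was lower with mean CPM, thinned cells, 2-fold and few markers. In Serpina3n-high cells 2 were higher with the limit at 2000 CPM or at 2-fold, and 1 was higher without limits on genes and complexity or with at least 100 UMIs. There 2 were lower at 500 CPM, 7 with thinned cells and 1 at 2-fold. High over low, 6 were higher at 2-fold in each library and 19 in Dox with centring. In control 1 was lower without limits, and in Dox 1 in the RPE-like cluster or at 2-fold and 0 without top doublet scores or with few markers. Control high cells numbered 35 at 500 CPM, 8 at 2000 CPM and 9 with few markers. RPE cells numbered 576 (control) and 735 (Dox) with at least 20000 UMIs, and 984 (control) with few markers. Finer clustering left 4247 and 3217 fibroblast-like and 1217 and 734 melanocyte-like cells.

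The summed share in control low, Dox low, control high and Dox high cells was 1.17, 1.16, 2.13 and 1.91% at 500 CPM, 1.19, 1.19, 2.51 and 2.03% at 2000 CPM, 1.20, 1.20, 2.32 and 2.04% without limits, 1.22, 1.21, 2.48 and 2.01% without mitochondrial UMIs, 1.12, 1.10, 2.05 and 1.91% with thinned cells, 1.25, 1.24, 2.51 and 1.99% with at least 20000 UMIs and 0.960, 0.930, 1.56 and 1.34% without Ctsd. It was 1.17 and 1.15% in low cells with Rpe65 at 5 UMIs. With Rpe65 at 20 UMIs it was 1.19% in Dox low and 2.49% in control high cells, and in the RPE-like cluster 1.19% in both low groups and 1.95% in Dox high cells. Without top doublet scores it was 1.20% in both low groups and 2.55% in control high cells. Control high cells held 2.29% without the deepest cell, and with few markers Dox low, control high and Dox high cells held 1.19, 2.32 and 1.98%. Without Ctsd, control and Dox shares were 0.821 and 0.801% in fibroblast-like, 1.43 and 1.35% in melanocyte-like, 1.73 and 1.68% in macrophage-like, 0.658 and 0.612% in endothelial-like, 0.506 and 0.456% in smooth muscle-like and 0.462 and 0.386% in NK- or T-like cells. Finer clustering gave 0.900 and 0.894% in fibroblast-like and 1.59% in control melanocyte-like cells.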
